A study of Mus musculus with 8 samples.

Results

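Glycolysis and hypoxia response genes were examined in the mouse line JoMa1, which is made of neural crest precursor cells, and in lines grown from tumours of MYCN-transfected JoMa1. The set was a list of 34 genes, picked by symbol, and a probe set belonged to a gene when its annotation gave that symbol alone. Of the 34 genes, 32 had such a probe set, with 76 probe sets among the 45101 on the array, and 31 entered tests over 18193 genes. Gapdh had 3 control probe sets, which were tested one by one, and the expression of Eno1 and Gpi1 was not analysed here. The tested genes were 11 glycolytic enzymes, 5 transporters and flux regulators, 12 other hypoxia targets and 3 subunits of the hypoxia-inducible factor (HIF).

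RNA was measured on 8 arrays, 1 per sample. There were 4 MYCN tumour lines, numbered 3 to 6, from tumours raised in immunocompromised mice. The other samples were 1 JoMa1 culture labelled as a GFP transfection control and 3 of the parental line. JoMa1 carries a tamoxifen-activated MYC fusion protein, a background that all groups share. The sources used here do not state the oxygen level, the medium glucose, whether tamoxifen was present at harvest, or whether the parental arrays came from separate cultures. The samples are described both as independent tumours and as lines derived from tumours, and RNA was taken from cultured cells. In such bulk samples, fewer cells of a type and less RNA per cell cannot be told apart.

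Glycolysis turns glucose into pyruvate in the cytosol, and lactate dehydrogenase turns pyruvate into lactate while restoring the cofactor that the pathway consumes. When oxygen is low, the prolyl hydroxylases that mark HIF alpha subunits for destruction slow down. The alpha subunits then pair with Arnt and bind the DNA core ACGTG or GCGTG near target genes, among them most glycolytic enzymes. MYC family proteins bind an overlapping DNA word, CACGTG, and several glycolytic genes are known targets of both.

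Values are log2 signals made with RMA, so that a difference of 1 is a doubling, and the SD over a group's arrays follows the sign ±. The transfected gene was read first. The brightest Mycn probe set stood at 14.13, 14.08, 14.20 and 14.26 in tumour lines 3 to 6, at 11.73 in the library labelled GFP-transfected, and at 7.29, 7.49 and 7.49 in the parental arrays. That signal goes against the label of the library, and each direction that rests on it carries this limit. Another Mycn probe set ran the other way, at 4.60 in tumour lines, 4.33 in the library labelled GFP-transfected and 8.13 in parental arrays (-3.53 and -3.80 against parental arrays), and the remaining one differed by 0.30 and was not called. The bacterial trpnX controls, which mark the level of no signal, read 3.84 to 4.04.

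The cell type labels were set against marker genes. Of the 12 neural crest markers, Tfap2b differed by -5.20, Pax3 by -1.17, Msx1 by 1.05 and Snai2 by 0.53 between tumour lines and parental arrays, and the other 8 were not called. Of the 12, Foxd3 (4.68 in tumour lines and 4.59 in parental arrays) and Ngfr (5.36 and 5.40) were dim in both groups. Others were brighter, since the mean level over all 12 was 7.47 to 7.64 in tumour lines and 7.90 to 7.91 in parental arrays. The summed linear signal of the 12 was 6601.0 to 8246.4 in tumour lines and 7234.1 to 7934.5 in parental arrays. None of the 9 endothelial markers was called between these 2 groups. Their summed linear signal was 390.2 to 601.7 in tumour lines and 388.0 to 435.5 in parental arrays. Leukocyte markers summed to 561.3 to 582.9 in tumour lines and 460.0 to 509.8 in parental arrays, with 2 of 9 called higher (Cd68 by 0.80, Lyz2 by 0.49), while Ptprc, which defines leukocytes, lay near the controls at 4.08 and 4.14. No erythroid marker was called among 3. Fibroblast and pericyte markers summed to 35169 to 43698 in tumour lines, 9989 in the library labelled GFP-transfected and 33304 to 34987 in parental arrays. There, 4 of 10 were called higher in tumour lines, led by Thy1 (4.0), Pdgfra (2.56) and Acta2 (0.81), and 1 lower, Col3a1 (-0.44). All these marker counts are to be read beside 16.6% of all genes called higher and 19.4% called lower in tumour lines. The part of the marker differences in the results below was not tested.

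In the tumour lines the genes moved in both directions. Of 31 genes, 9 rose, 10 fell and 12 were not called at an adjusted p under 0.05 in limma, beside 16.6% of all genes called higher and 19.4% called lower. Both shares of the 31 lie above that background, a gap that was not tested. The 31 genes were brighter than that background, with a mean level of 10.10 to 10.44 in tumour lines beside 7.66 to 7.69 over all genes. The part of level in the gap was not tested either. Calls of at least 2-fold covered 5 genes that rose, Car9, Epas1, Slc2a3, Aldoc and Ndrg1, where 4.92% of all genes passed that rule, and 1 that fell, Pdk1, where 3.93% did, so that the share of 2-fold falls is near the background. The median difference over the 31 genes was 0.03, beside 0.01 over all genes. Among the glycolytic enzymes 3 rose and 3 fell, with a median of 0.05. Among the transporters and regulators 1 rose and 2 fell (median -0.13), among the other hypoxia targets 4 rose and 4 fell (median 0.06), and among the HIF subunits 1 rose and 1 fell (median -0.04). The sign of the hypoxia target median was not stable with 1 array left out, from -0.0351 (without line 5) to 0.1187 (without line 6). Among genes above the median level the median was -0.36, over fewer targets, since Car9, Adm and Ankrd37 lie below that level and drop out.

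**Figure D1:**
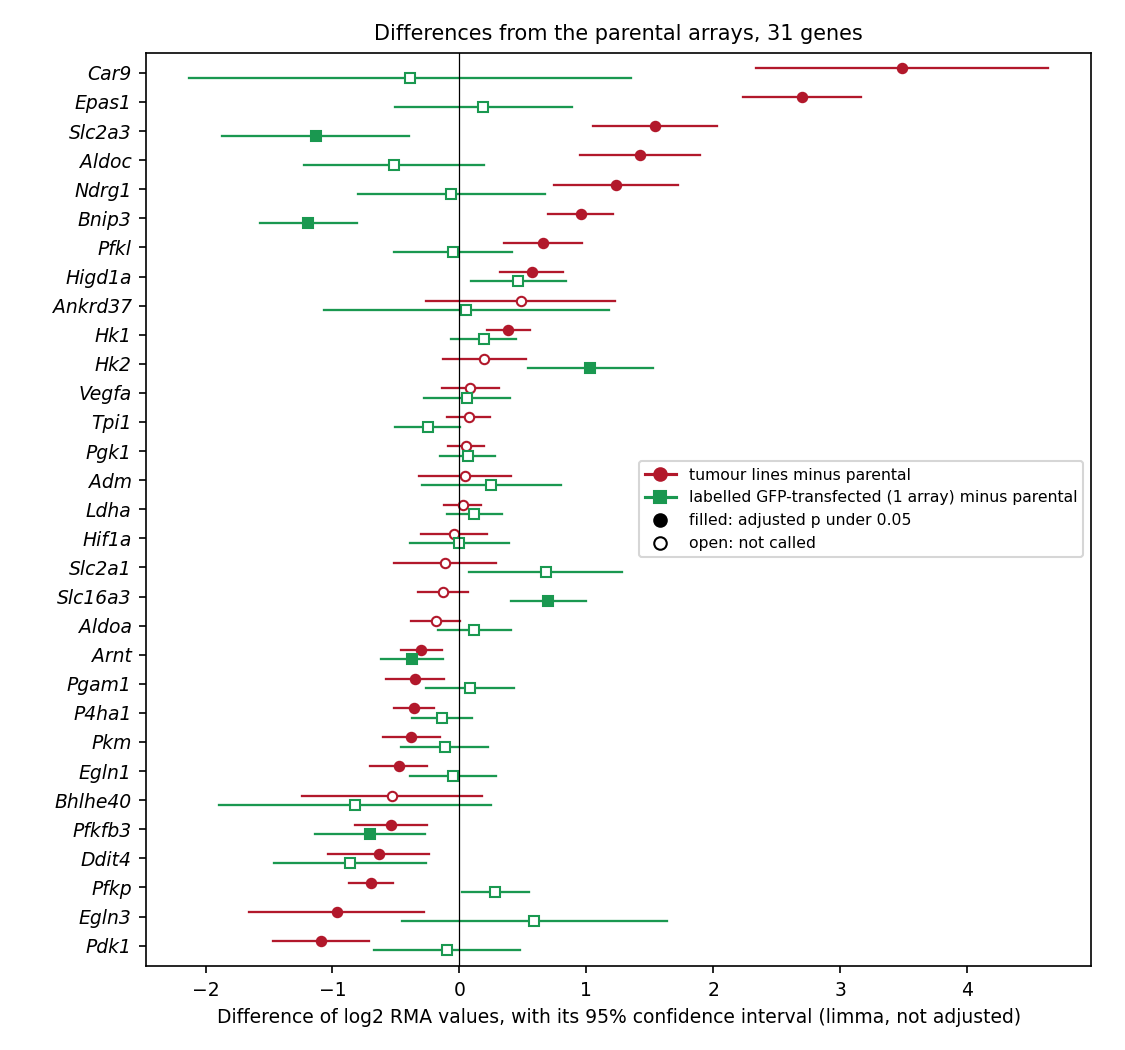
Differences from the parental arrays for 31 genes on the log2 scale, with unadjusted 95% confidence intervals from limma. Circles give the 4 tumour lines and squares the single library labelled GFP-transfected, and filled symbols passed an adjusted p of 0.05. Car9 and Epas1 lead at 3.49 and 2.70 in tumour lines, while Pgk1, Ldha and Hif1a sit near 0 in both comparisons.

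The promoters of a few genes show the DNA that HIF and MYC proteins are known to read. Sequences are from RefSeq, build GRCm38.p6, from 250 bases before to 50 after the outermost annotated start, written 5′ to 3′ on the gene's strand. Capitals mark ACGTG and GCGTG on either strand (CACGT and CACGC where the match lies on the other strand), and CACGTG where both strands match. Car9 (chr4:43506776-43507075, plus strand), Bnip3 (chr7:138909457-138909756, minus strand) and Aldoc (chr11:78322823-78323122, plus strand) are shown as genes that rose in tumour lines. Pdk1 (chr2:71872974-71873273, plus strand) and Egln3 (chr12:54203825-54204124, minus strand) fell, and Ldha (chr7:46845554-46845853, plus strand) was not called.
Car9: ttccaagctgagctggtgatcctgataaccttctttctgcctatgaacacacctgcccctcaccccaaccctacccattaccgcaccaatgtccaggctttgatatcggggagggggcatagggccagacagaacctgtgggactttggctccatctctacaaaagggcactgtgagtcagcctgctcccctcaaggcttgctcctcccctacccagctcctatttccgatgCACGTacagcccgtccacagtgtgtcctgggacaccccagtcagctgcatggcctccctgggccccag
Bnip3: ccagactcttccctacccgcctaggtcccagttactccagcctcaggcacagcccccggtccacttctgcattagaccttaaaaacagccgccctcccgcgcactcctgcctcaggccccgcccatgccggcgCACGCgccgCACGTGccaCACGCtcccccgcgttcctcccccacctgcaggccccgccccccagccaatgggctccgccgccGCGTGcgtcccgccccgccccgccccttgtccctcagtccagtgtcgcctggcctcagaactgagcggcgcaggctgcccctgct
Aldoc: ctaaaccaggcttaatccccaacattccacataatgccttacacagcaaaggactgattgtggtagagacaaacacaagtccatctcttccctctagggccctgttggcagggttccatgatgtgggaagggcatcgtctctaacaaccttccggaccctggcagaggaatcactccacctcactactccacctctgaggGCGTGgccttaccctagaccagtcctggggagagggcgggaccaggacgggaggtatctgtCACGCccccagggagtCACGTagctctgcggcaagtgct
Pdk1: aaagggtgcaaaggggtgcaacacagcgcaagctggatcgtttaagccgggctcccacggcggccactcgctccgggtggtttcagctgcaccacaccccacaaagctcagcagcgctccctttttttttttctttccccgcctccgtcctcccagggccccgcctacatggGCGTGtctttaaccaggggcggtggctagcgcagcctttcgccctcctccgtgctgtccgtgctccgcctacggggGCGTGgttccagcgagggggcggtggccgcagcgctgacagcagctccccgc
Egln3: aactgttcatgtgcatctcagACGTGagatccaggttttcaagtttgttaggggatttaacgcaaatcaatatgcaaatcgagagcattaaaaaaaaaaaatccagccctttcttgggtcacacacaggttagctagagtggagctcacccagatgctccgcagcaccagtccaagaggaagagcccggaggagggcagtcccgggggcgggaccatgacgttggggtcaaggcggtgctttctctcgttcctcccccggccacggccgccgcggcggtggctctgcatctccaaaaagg
Ldha: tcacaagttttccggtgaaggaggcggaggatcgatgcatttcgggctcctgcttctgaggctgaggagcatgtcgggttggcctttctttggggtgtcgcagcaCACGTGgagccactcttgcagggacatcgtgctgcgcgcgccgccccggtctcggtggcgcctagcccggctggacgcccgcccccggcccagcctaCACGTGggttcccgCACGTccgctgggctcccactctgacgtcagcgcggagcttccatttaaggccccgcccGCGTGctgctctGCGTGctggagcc

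The window of Car9 holds a single core, whose first base lies 18 bases before the start. Ldha holds CACGTG at 2 places, and Bnip3 holds it once. A promoter entry was found for 30 of the 34 genes, and Epas1, Ndrg1, Slc2a3 and Bhlhe40 had none. ACGTG or GCGTG occurred in 24 of the 30 windows (80.0%), beside 43.8% of all 27026 windows, and CACGTG, which contains ACGTG on both strands, in 3 of the 30 beside 7.2% of all. The median GC content was 65.0% in the 30 windows and 52.7% in all, and its part in the motif counts was not tested. A core was present in 5 of 6 windows of genes that rose, 9 of 10 of genes that fell and 8 of 11 of genes not called. The core was thus found whichever way a gene moved, and a match says only that these letters occur in the window.

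**Figure D2:**
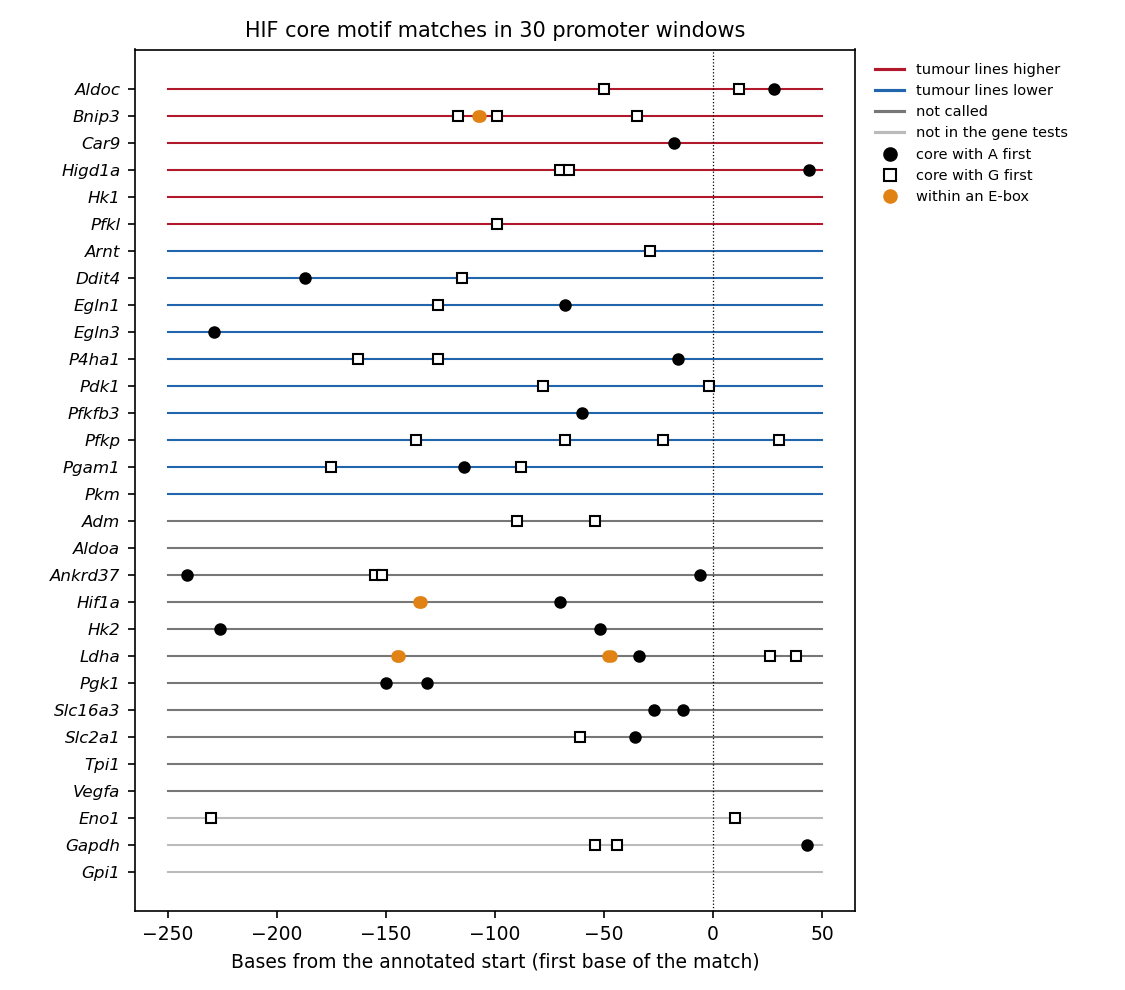
Matches to the HIF core in 30 promoter windows, by distance in bases from the annotated start. Line colour gives the call in tumour lines against parental arrays, filled circles a core beginning with A, open squares a core beginning with G, and orange a core inside CACGTG. Genes that rose, fell or were not called all carry matches, and Hk1, Pkm, Aldoa, Tpi1, Vegfa and Gpi1 show none.

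At the early steps of glycolysis the isoforms differed in their changes. Hexokinases trap glucose in the cell by phosphorylating it. Hk1, the widely expressed form, stood at 10.001, 9.79, 9.93 and 9.97 in tumour lines 3 to 6 and at 9.56, 9.51 and 9.53 in parental arrays. All tumour lines lay above all parental arrays, a rise of 0.39 (SE 0.07, 1.31-fold, adjusted p = 0.00354). Hk2, the inducible form found in many tumours, stood at 10.61, 10.05, 10.61 and 10.63 in the tumour lines and at 10.29, 10.32 and 10.23 in parental arrays. Tumour line 4 alone lay below the parental arrays, and the difference of 0.20 was not called (SE 0.14, adjusted p = 0.347). Without line 4, Hk2 was called higher by 0.34 (adjusted p = 0.00516).

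Phosphofructokinase, which commits sugar to glycolysis, showed opposite changes of its liver and platelet subunits. The liver subunit Pfkl stood at 9.73, 9.28, 9.61 and 9.81 in tumour lines 3 to 6 and at 9.11, 8.94 and 8.80 in parental arrays, with no overlap. It rose by 0.66 (SE 0.13, 1.58-fold, adjusted p = 0.00503), and its other 2 probe sets rose by 0.55 and 0.46. The platelet subunit Pfkp stood at 9.29, 9.48, 9.47 and 9.51 in the tumour lines and at 10.17, 10.16 and 10.08 in parental arrays. All tumour lines lay below, a fall of 1.62-fold (-0.70, SE 0.08, adjusted p = 0.000172). Of its other probe sets, 1 fell by 0.37 and the other, at -0.40, was not called (adjusted p = 0.073).

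Aldolases split the phosphorylated sugar into triose phosphates. Aldoc, the form best known from brain, stood at 7.33, 8.34, 7.61 and 7.72 in tumour lines 3 to 6 and at 6.29, 6.38 and 6.31 in parental arrays. It rose in every line, by 1.42 on average (SE 0.20, 2.68-fold, adjusted p = 0.000809). Among the tested glycolytic enzymes of the set, it alone passed 2-fold. A different Aldoc probe set lay at the level of the trpnX controls in both groups, 4.03 and 3.99. The muscle and general form Aldoa stood at 13.20, 12.94, 13.18 and 13.21 in the tumour lines and at 13.36, 13.33 and 13.28 in parental arrays. The groups did not overlap, but the difference of -0.19 was not called (SE 0.08, adjusted p = 0.121). The mean of its probe sets differed by -0.22 and was called (adjusted p = 0.0473). Tested singly, another of its 5 probe sets was called lower (-0.38, adjusted p = 0.00773), and the rest, at -0.21, -0.24 and -0.07, were not called.

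No gene in the middle of the pathway was called. Tpi1, which interconverts the triose phosphates, averaged 13.28 ± 0.10 in tumour lines and 13.20 ± 0.01 in parental arrays (0.07, 95% confidence interval -0.09 to 0.24). Pgk1, the first enzyme to yield ATP, averaged 13.74 ± 0.05 and 13.69 ± 0.01 (0.05, interval -0.09 to 0.19). For Gapdh, between these steps, the control probe sets differed by 0.02, -0.04 and -0.02, and none was called. All 3 genes lie near the top of the scale, where the 99th percentile of an array was 13.29 to 13.33 and the highest value 14.84 to 14.95, and compression of differences there was not tested.

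At the end of the pathway, Pgam1, which moves a phosphate within phosphoglycerate, stood at 13.04, 12.79, 12.67 and 13.005 in tumour lines 3 to 6 and at 13.24, 13.22 and 13.22 in parental arrays. Pkm, the pyruvate kinase of most tissues and tumours, stood at 12.71, 12.62, 12.67 and 12.998 in the tumour lines and at 13.13, 13.14 and 13.10 in parental arrays. Both fell without overlap, Pgam1 by 0.35 (SE 0.10, adjusted p = 0.0239) and Pkm by 0.38 (SE 0.10, adjusted p = 0.0161). Ldha, the lactate dehydrogenase subunit that favours lactate production, averaged 13.64 ± 0.05 in tumour lines and 13.62 ± 0.03 in parental arrays. The groups overlapped, and the difference of 0.03 had an interval of -0.12 to 0.17. The calls of these falls were lost in some fits with 1 array fewer, while their size hardly changed. Pgam1 lost its call without any 1 of the 3 parental arrays (adjusted p from 0.0688 to 0.0792), at differences of -0.346 to -0.357. Pkm lost its call without parental array 1 or 2 (0.0568 and 0.0577), at -0.377 and -0.370. With either of those 2 arrays left out, 1 glycolytic enzyme of the set stayed called lower, Pfkp.

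**Figure D3:**
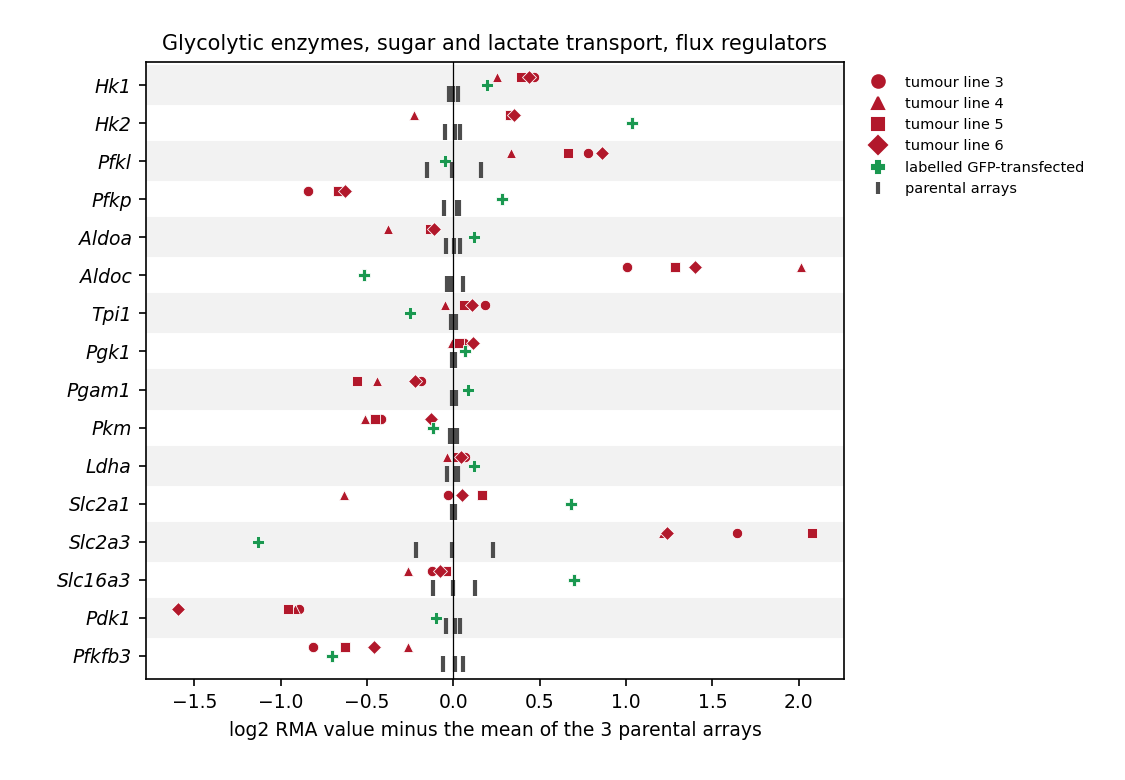
Glycolytic enzymes in pathway order, then transporters and flux regulators, as the log2 value of each array minus the mean of the 3 parental arrays. Red symbols are tumour lines 3 to 6, green crosses the library labelled GFP-transfected and grey ticks the parental arrays. Aldoc and Slc2a3 lie above the parental arrays in all tumour lines and below them in the GFP-labelled library, while Pdk1 and Pfkp lie below in all tumour lines.

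Slc2a3 encodes GLUT3, the high-affinity glucose carrier of neurons. It stood at 8.52, 8.09, 8.96 and 8.11 in tumour lines 3 to 6 and at 7.11, 6.66 and 6.87 in parental arrays, a rise of 1.54 (SE 0.21, 2.91-fold, adjusted p = 0.000651). All tumour lines lay above all parental arrays. A second probe set rose by 1.5, and 2 dimmer ones, at 5.14 and 4.16 in tumour lines, differed by 0.04 and 0.17 and were not called. Both probe sets that rose are of kinds that can bind several transcripts, and without those kinds the gene differed by 0.04 (adjusted p = 0.808). Slc2a1, encoding the general carrier GLUT1, stood at 11.81, 11.20, 12.002 and 11.89 in the tumour lines and at 11.83, 11.84 and 11.84 in parental arrays. The lines spread to both sides, and the difference of -0.11 was not called (interval -0.51 to 0.29). The lactate exporter Slc16a3 (MCT4) averaged 7.02 ± 0.10 in tumour lines and 7.15 ± 0.12 in parental arrays and was not called either.

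Both flux regulators fell. Pdk1 encodes a kinase that shuts off pyruvate dehydrogenase and so keeps pyruvate out of the mitochondrial cycle. It stood at 9.94, 9.92, 9.88 and 9.24 in tumour lines 3 to 6 and at 10.87, 10.79 and 10.85 in parental arrays. Every line lay well below, with line 6 the lowest, a 2.13-fold fall (-1.09, SE 0.17, adjusted p = 0.0011), and 2 further probe sets fell by 1.0 and 0.81. A remaining Pdk1 probe set lay at the level of the trpnX controls. Pfkfb3, whose product makes the activator of phosphofructokinase, stood at 8.03, 8.58, 8.21 and 8.38 in the tumour lines and at 8.90, 8.85 and 8.78 in parental arrays. It fell by 0.54 (SE 0.12, 1.45-fold, adjusted p = 0.00944) without overlap. With the mean of its 2 probe sets the difference was -0.26 and was not called (adjusted p = 0.0527).

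Other hypoxia targets held the largest rise. Car9 encodes carbonic anhydrase IX, a cell surface enzyme that exports acid equivalents and a widely used marker of hypoxic tumours. It stood at 7.65, 7.78, 9.63 and 9.52 in tumour lines 3 to 6, at 4.77 in the library labelled GFP-transfected and at 5.17, 4.96 and 5.33 in parental arrays. The lines fell into a lower pair, 3 and 4, and a higher pair, 5 and 6, all above the parental arrays. The rise was 3.49 (SE 0.50, 11.2-fold, adjusted p = 0.000813). RMA pulls weak signals together and tends to understate differences from dim values. Its part in the size of the Car9 rise was not tested.

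Bnip3 and Higd1a encode mitochondrial proteins. Bnip3, a receptor for the removal of mitochondria, stood at 12.01, 11.71, 11.92 and 12.02 in tumour lines 3 to 6 and at 11.06, 11.07 and 10.75 in parental arrays. It rose by 0.95 (SE 0.11, 1.94-fold, adjusted p = 0.000259) without overlap. Higd1a, a respiratory chain protein, stood at 12.29, 11.98, 12.17 and 12.44 in the tumour lines and at 11.63, 11.69 and 11.63 in parental arrays, a rise of 0.57 (SE 0.11, adjusted p = 0.00348). Its other 2 probe sets rose by 1.49 and 0.84, so that the brightest one gave the smallest value. Ndrg1, a stress and differentiation gene known as a target of repression by MYC proteins, stood at 11.89, 11.20, 12.28 and 11.77 in the tumour lines and at 10.53, 10.60 and 10.52 in parental arrays. It rose by 1.23 (SE 0.21, 2.35-fold, adjusted p = 0.00215), and all 5 of its probe sets were called higher, by 1.14 to 1.61.

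The oxygen sensors among the targets fell. Egln1 and Egln3 encode the prolyl hydroxylases PHD2 and PHD3, which mark HIF alpha subunits and are themselves induced by HIF. Egln1 stood at 9.57, 9.19, 9.50 and 9.48 in tumour lines 3 to 6 and at 9.94, 9.94 and 9.87 in parental arrays, a fall of 0.48 (SE 0.10, adjusted p = 0.00527). Its other probe set fell by 0.83. Egln3 stood at 9.88, 8.41, 9.51 and 9.58 in the tumour lines and at 10.35, 10.34 and 10.25 in parental arrays, with line 4 far below the rest. Its fall of 0.97 was called (SE 0.30, adjusted p = 0.0351). The call was lost without any 1 parental array (adjusted p from 0.0875 to 0.104) and with a trended and robust variance prior (0.0609), and the other probe set, at -0.78, was not called (adjusted p = 0.105).

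P4ha1, a subunit of the collagen prolyl hydroxylase, stood at 10.31, 10.23, 10.37 and 10.40 in tumour lines 3 to 6 and at 10.69, 10.70 and 10.66 in parental arrays. The groups were narrow and apart, and the gene fell by 0.36 (SE 0.07, adjusted p = 0.00364). Ddit4, the stress-induced inhibitor of mTORC1 also called REDD1, stood at 11.19, 10.61, 10.97 and 10.42 in the tumour lines and at 11.49, 11.47 and 11.34 in parental arrays. It fell by 0.64 (SE 0.17, adjusted p = 0.0198), a call lost without parental array 1 or 2 (0.0737 and 0.0695). With either array left out, 2 of the 12 hypoxia targets were called lower, in place of 4.

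The remaining 4 hypoxia targets were not called. The angiogenic growth factor gene Vegfa averaged 9.25 ± 0.15 in tumour lines and 9.17 ± 0.09 in parental arrays (0.08, interval -0.14 to 0.31), and the vasodilator peptide gene Adm 6.001 ± 0.32 and 5.96 ± 0.07. Ankrd37, an ankyrin repeat gene, stood at 8.67 in tumour line 3 and at 7.18 to 7.52 in the others, beside 6.97 to 7.37 in parental arrays. Bhlhe40, a transcriptional repressor gene, stood at 8.26 in tumour line 4 and at 9.37 to 9.76 in the others, beside 9.71 to 9.83 in parental arrays. For Ankrd37, lines 3 and 5 lay above the parental range and lines 4 and 6 within it (difference 0.48, interval -0.26 to 1.22). For Bhlhe40, lines 3, 4 and 6 lay below the parental range and line 5 within it (-0.53, interval -1.24 to 0.17).

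**Figure D4:**
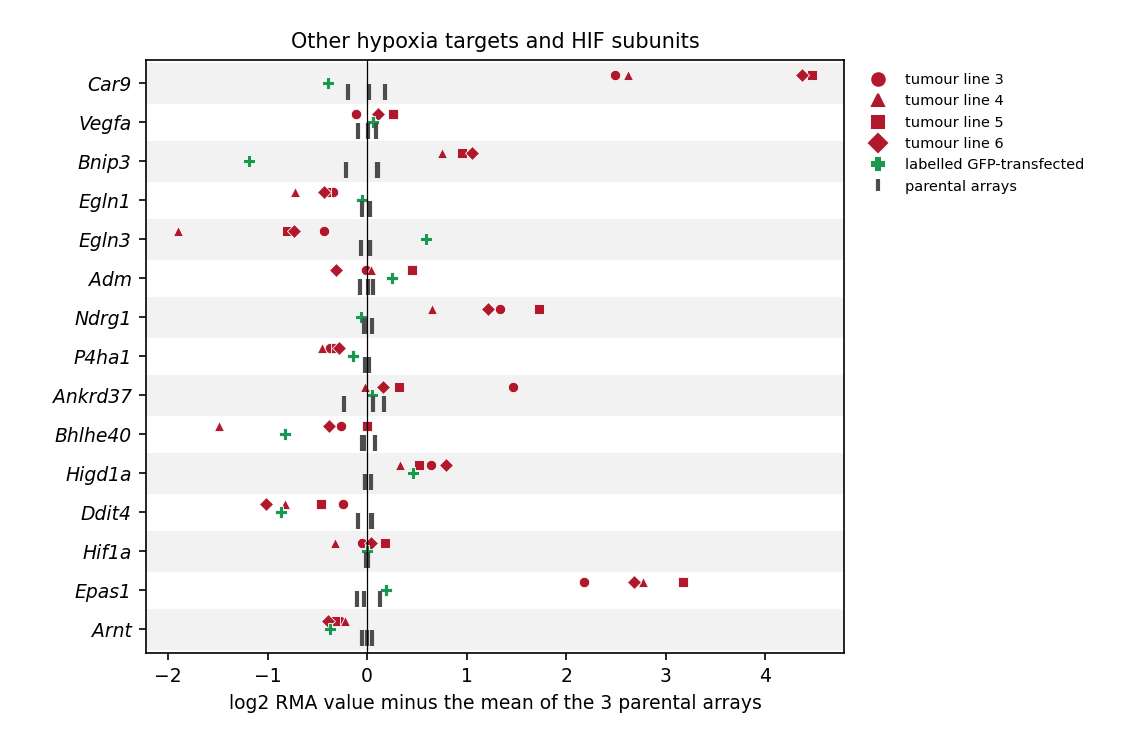
Other hypoxia targets, then HIF subunits, as the log2 value of each array minus the mean of the 3 parental arrays, with the same symbols for tumour lines, GFP-labelled library and parental arrays as in the plot of glycolytic genes. Car9, Ndrg1, Bnip3, Higd1a and Epas1 lie above the parental arrays in all 4 tumour lines, and Egln1, Egln3, P4ha1, Ddit4 and Arnt below.

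The HIF subunits themselves diverged. Epas1 encodes HIF-2 alpha, the subunit linked to sympathetic and chromaffin lineage cells and to neuroblastoma. It stood at 7.74, 8.34, 8.74 and 8.24 in tumour lines 3 to 6, at 5.75 in the library labelled GFP-transfected and at 5.54, 5.70 and 5.46 in parental arrays. All tumour lines lay above the other arrays, a rise of 2.70 (SE 0.20, 6.5-fold, adjusted p = 2.3e-05). A second Epas1 probe set read 6.07 in tumour lines and 5.91 in parental arrays and was not called (0.16, adjusted p = 0.312). Hif1a, for HIF-1 alpha, stood at 12.85, 12.57, 13.07 and 12.93 in the tumour lines and at 12.88, 12.91 and 12.89 in parental arrays. The lines lay on both sides (-0.04, interval -0.30 to 0.22), and none of its 4 probe sets was called. HIF-1 alpha is controlled mainly through protein stability, which RNA arrays do not measure. Arnt, the shared partner, stood at 9.86, 9.91, 9.80 and 9.74 in the tumour lines and at 10.08, 10.13 and 10.18 in parental arrays, a fall of 0.30 (SE 0.07, 1.23-fold, adjusted p = 0.00978). Of the 4 other Arnt probe sets, 2 fell, by 0.28 and 0.23, and 2 were not called. With the GFP-labelled array pooled with the parental ones, the falls of Arnt, Ddit4 and Pfkfb3 lost their calls (adjusted p = 0.169, 0.243 and 0.193).

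**Figure D5:**
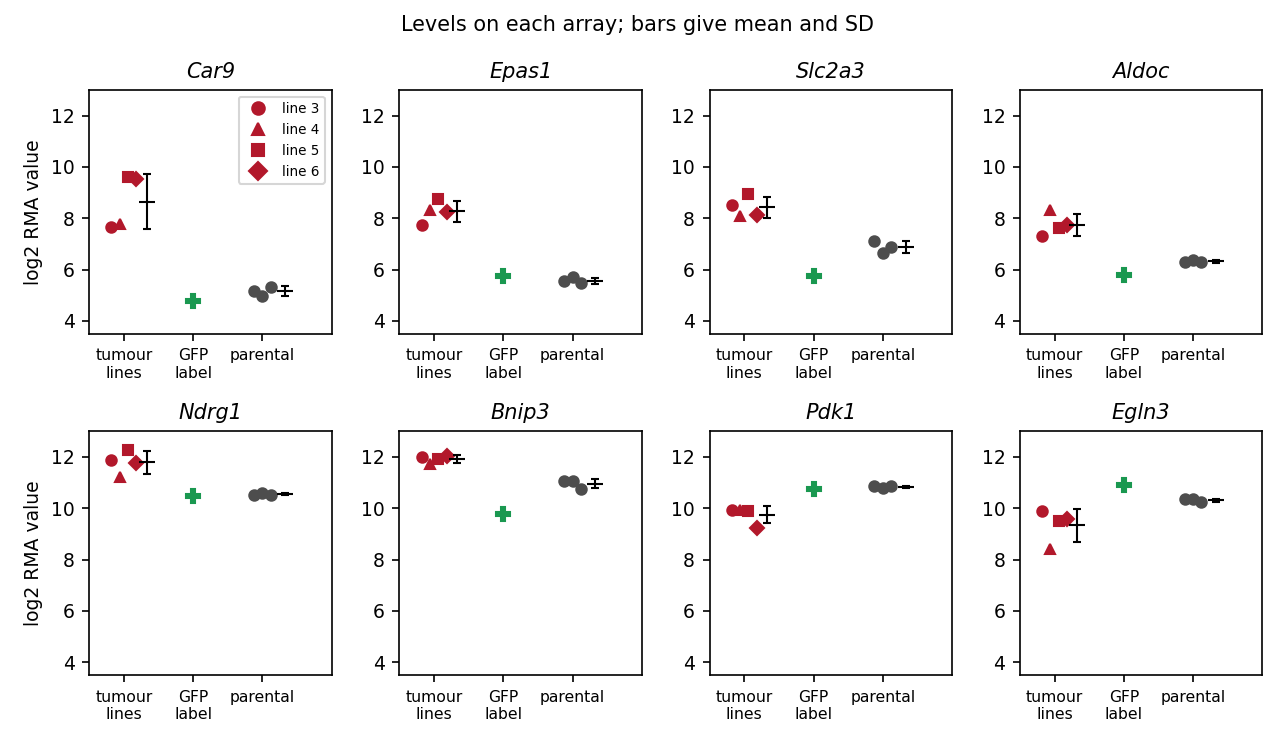
Log2 RMA values of 8 genes on every array, with the mean and SD of the tumour lines (n = 4) and the parental arrays (n = 3) as bars and the single library labelled GFP-transfected in between. Car9 separates lines 5 and 6 (9.63 and 9.52) from lines 3 and 4 (7.65 and 7.78), and Bnip3 in the GFP-labelled library (9.77) lies below all other arrays.

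The tumour lines also differed among themselves. Line 4 was the lowest of the 4 lines for 20 of the 31 genes, line 3 for 6, line 6 for 4 and line 5 for 1, while line 4 was the lowest for 27.5% of all genes. The median distance of the 31 genes from the parental mean was -0.22 in line 4, -0.03 in line 3, 0.06 in line 5 and 0.04 in line 6. Over all genes the median distance in line 4 was 0.02. RNA quality was read from control probe sets as the 3′ signal minus the 5′ signal, which was 0.092 in line 4 and 0.104 to 0.151 in the other lines for Gapdh, and 0.053 to 0.078 in parental arrays. For Actb it was 0.516 to 0.613 in tumour lines and 0.627 to 0.641 in parental arrays. The part of RNA quality in the results was not tested.

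The library labelled GFP-transfected was set against the same parental arrays. It is a single array with no spread of its own and was assumed to vary like the others. Those did not vary alike. Correlation over genes was 0.9977 to 0.9983 among parental arrays and 0.9886 to 0.9932 among tumour lines, while the fit used 1 shared spread. Of the 31 genes, 2 were called higher and 4 lower, beside 7.43% and 8.66% of all genes, and both counts are near that background. Hk2 stood at 11.31 there, above all other arrays, 1.03 over the parental mean (SE 0.22, 2.04-fold, adjusted p = 0.0136). Slc16a3, at 7.85, was higher by 0.70 (SE 0.13, adjusted p = 0.00789). Bnip3, at 9.77, was lower by 1.19 (SE 0.17, 2.28-fold, adjusted p = 0.00224). Slc2a3, at 5.75, was lower by 1.13 (adjusted p = 0.0477), Pfkfb3, at 8.14, by 0.70 (0.0379) and Arnt, at 9.76, by 0.37 (0.0469). These last 3 lost their calls without any 1 parental array (adjusted p from 0.0687 to 0.121 for Slc2a3, 0.0775 to 0.0983 for Pfkfb3 and 0.081 to 0.118 for Arnt). Slc2a3 also lost its call without tumour line 3 (0.0683), Pfkfb3 without line 6 (0.053) and Arnt without line 3 or 5 (0.0596 and 0.056), since all arrays share 1 spread. Without line 4, Slc2a1, Higd1a and Egln3 were called higher (adjusted p = 0.00459, 0.0367 and 0.0331) and Bhlhe40 lower (0.00948), and without line 3 or 6 Ddit4 was called lower (0.0268 and 0.03). For Slc2a3 leaving out _x_at and _s_at probe sets gave 0.0563 in place of -1.13. The fibroblast and pericyte markers differed by a median of -1.34 in this library, with Acta2 lower by 6.06. Neural crest markers summed to 5578.9 on the linear scale there, beside 7234.1 to 7934.5 in parental arrays. Endothelial markers summed to 450.7, beside 388.0 to 435.5, and differed by -0.31 to 1.96. The part of these marker differences in the results for this library was not tested.

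Set directly against that library, the tumour lines were higher for 7 of the 31 genes and lower for 6, beside 14.0% and 16.4% of all genes. The genes called higher were Car9 (3.88, SE 0.74), Slc2a3 (2.67, SE 0.31), Epas1 (2.51, SE 0.29), Bnip3 (2.14, SE 0.16), Aldoc (1.94, SE 0.30), Ndrg1 (1.30, SE 0.31) and Pfkl (0.71, SE 0.20). Those called lower were Egln3 (-1.56, SE 0.44), Pdk1 (-0.99, SE 0.24), Pfkp (-0.98, SE 0.11), Hk2 (-0.84, SE 0.21), Slc16a3 (-0.83, SE 0.13) and Slc2a1 (-0.79, SE 0.25). Adjusted p-values ran from 3.45e-05 for Bnip3 to 0.0462 for Slc2a1. The call of Slc2a1 was lost without any 1 parental array (0.0755 to 0.0775) or tumour line 3 or 6 (0.0653 and 0.0519), and that of Egln3 without parental array 3 (0.0504). Calls were gained without line 3 by Pgam1 and Egln1 (0.0322 and 0.0418), without line 4 by Tpi1, Egln1 and Bhlhe40 (0.0227, 0.0283 and 0.0189), and without line 6 by Pgam1 and Pkm (0.0454 and 0.0302). Slc2a3 without _x_at and _s_at probe sets differed by -0.0168. This comparison shares its tumour lines, and the one before it its parental arrays, with the main comparison.

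Genes around the 34 were read from lists chosen for their place in metabolism. Their counts are to be read beside the 16.6% of all genes called higher and the 19.4% called lower. Among 20 further glycolytic isoenzymes and regulators 5 rose and 5 fell in tumour lines against parental arrays (median -0.02). Ldhb, the lactate dehydrogenase subunit of heart, rose by 1.19 (SE 0.23), the neuronal enolase Eno2 fell by 1.03 (SE 0.07), and the regulator Pfkfb4 rose by 0.96 (SE 0.15). Ldhb read 8.09 in the library labelled GFP-transfected, 2.02 below the parental mean. Among 19 genes of pyruvate and lactate handling 4 rose and 7 fell (median -0.04). The monocarboxylate carrier Slc16a7 rose by 1.53 and the phosphatase Pdp1, which switches pyruvate dehydrogenase on, by 1.38 (SE 0.13), while pyruvate carboxylase, Pcx, fell by 0.73. Among 6 genes of the pentose phosphate pathway, which branches off glycolysis, 0 rose and 3 fell (median -0.14): transketolase, Tkt, by 0.99, Pgls by 0.73 and Rpia by 0.32. Of 15 genes of the tricarboxylic acid cycle 1 rose and 7 fell (median -0.25), with Idh3g higher by 1.0, and Sdha and citrate synthase, Cs, lower by 0.68 and 0.57.

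Among 14 genes of HIF oxygen sensing and its cofactors 1 rose and 6 fell (median -0.20). The coactivator competitor Cited2 rose by 0.58 (SE 0.07), and the inhibitory alpha subunit Hif3a and the Arnt relative Arnt2 each fell by 0.48. Among 29 further hypoxia targets 13 rose, a share above the 16.6% of all genes, and 3 fell, a share below the 19.4% (median 0.21). Neither gap was tested. These genes were also brighter, with a mean level of 9.63 to 9.92 in tumour lines beside 7.66 to 7.69 over all genes. The lipoprotein lipase inhibitor gene Angptl4 stood at 10.82, 9.64, 11.28 and 10.89 in tumour lines 3 to 6 and at 6.83, 6.82 and 6.69 in parental arrays, a rise of 3.88 (SE 0.33, adjusted p = 4.72e-05). The hormone gene Stc1 rose by 1.96 (SE 0.53), and Car12, a surface carbonic anhydrase like Car9, by 1.84 (SE 0.30). In the single library labelled GFP-transfected, the 29 genes differed from the parental mean by -5.85 to 1.64 (median -0.04). Over all genes the range there was -6.99 to 5.55 (median -0.0017).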

How the data were processed

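Per the labels' protocols, RNA came from cultured cells, was purified on columns and labelled with biotin for Affymetrix arrays. The deposited values are log2 signals, 1 for each probe set on each array, which the authors computed with RMA (background correction, normalization to a shared distribution, probe summary). The tools were RMA and Partek, per the submitters' processing notes, which give no version. The genome build was not given in the sources used here, nor were scan batches. The log2 scale was read from the values, whose array medians were 6.26 to 6.30. RMA tends to understate differences of dim genes and removes changes in total RNA.

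Probe sets with 1 gene symbol (34945, 64 controls apart) were used, while 932 with several and 9160 with none were left out. Each of 18193 genes took its probe set of highest mean over the 8 arrays. Groups came from titles, source names and transfectant labels. All 3 comparisons came from 1 limma fit (version 3.58.1, R 4.3.3) with 1 coefficient per group, lmFit and eBayes, two-sided, with Benjamini-Hochberg adjustment over all genes and a call at an adjusted p under 0.05. Probe sets were also tested singly (34958, of which 33.9% were called in tumour lines against parental arrays), and values given for a gene's other probe sets come from that fit. The code was tested on simulated data. Where parental arrays are not separate cultures, p-values measure technical spread in part.

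The 34 genes and the lists were chosen with earlier results of these data known. Named genes were all 34, Mycn, and from each other list up to 3 called genes with the largest differences, with the brightest 2 of marker lists besides, of which only those needed are given. Foxd3, Ngfr and Ptprc fall outside that rule. The alternatives tried were averaging a gene's probe sets, dropping those with suffix _x_at or _s_at, keeping genes above the median level, another prior, array weights, renormalization, median centring, pooling the GFP-labelled array with the parental ones, fitting only the groups compared, and leaving out each array. Array number limits the precision.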

Additional observations from a re-analysis of the deposited data

Results flagged for a closer look

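In 5 of 34 checks of the tumour lines, 1 line stood apart from the others by a gap that covered most of the range of the 4 values. Chance flags about 1 in 20 such groups. Tumour line 4 was low for Hk2, at 10.05 beside 10.61 to 10.63 in the other lines, and for Aldoa, at 12.94 beside 13.18 to 13.21. It was also low for Gapdh, at 14.13 in the 3′ control probe set and 13.88 in the middle one, which read the same transcript and are not independent. Line 6 was low for Pdk1, at 9.24 beside 9.88 to 9.94.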

How the results depend on the processing

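Over the alternatives run for tumour lines against parental arrays, 463 gene values kept their direction and their side of the threshold, 17 lost a call, 2 gained one and 7 changed sign. For the library labelled GFP-transfected against parental arrays the numbers were 390, 20, 11 and 6, and for tumour lines against that library 387, 9, 22 and 9. The cause was not tested. In the main comparison the median of the hypoxia targets was -0.36 among genes above the median level, a setting that drops Car9, Adm and Ankrd37. Leaving out 1 array gave 1 to 3 glycolytic enzymes and 2 to 4 hypoxia targets called lower. The mean of probe sets ended the call of Egln3 (adjusted p = 0.0621). Signs changed only for genes not called: Hif1a was 0.0444 with the mean of probe sets, Hk2, Ldha and Adm were -0.0627, -0.0041 and -0.0194 with pooling, and leaving out 1 array gave -0.1118 to 0.0555 for Hif1a, -0.2059 to 0.0606 for Slc2a1 and -0.0946 to 0.1606 for Adm.

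For the GFP-labelled library against parental arrays, the hypoxia target median was -0.0088 with the mean of probe sets and -0.10 after renewed quantile normalization, which gave the glycolytic enzymes 0.0586. Hypoxia targets called lower numbered 2 among genes above the median level, with array weights and with quantile normalization, and 1 was called higher with array weights. Leaving out 1 array gave 0 to 2 called higher and 1 to 2 called lower. Signs changed for Slc2a3 (0.0563) and Adm (-0.0020) without _x_at and _s_at probe sets, Egln1 (0.10) with the mean of probe sets, and, leaving out 1 array, for Pfkl (-0.1235 to 0.0312), Hif1a (-0.0069 to 0.0078) and Ankrd37 (-0.0632 to 0.1398).

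For tumour lines against that library, hypoxia targets called lower numbered 2 with the mean of probe sets, among genes above the median level and with array weights, and 0 with a trended and robust prior, which gave 4 glycolytic enzymes called lower. The glycolytic median was -0.18 among genes above the median level, a setting that drops Aldoc. Leaving out 1 array gave 0 to 2 hypoxia targets and 2 to 4 glycolytic enzymes called lower. Signs changed for Slc2a3 (-0.0168), Adm (0.16) and Arnt (-0.0049) without _x_at and _s_at probe sets, Vegfa (-0.0159 with the mean, -0.0009 with median centring) and Pgk1 (0.0279 with quantile normalization). Leaving out 1 array gave -0.0344 to 0.0916 for Vegfa, -0.0364 to 0.0027 for Pgk1 and -0.1125 to 0.0548 for Hif1a. No paired analysis was made, since the sources used here name no pairs of tumour lines and parental arrays. The single GFP-labelled array and unknown culture origin limit all p-values, and dim or very bright probe sets limit the size of differences.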
